A study of Homo sapiens with 12 samples.

Results

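Antisense noncoding genes, here AS genes, are long noncoding RNA genes whose official name is that of a neighbouring gene followed by AS and a number, as in THAP9-AS1. They were chosen by 2 conditions, a name that ends in this suffix (EPB41L4A-AS1 was left out) and a mean of at least 2 CPM (the gene's counts scaled to a common library total) over all 12 libraries. Of 60645 gene names in the table, 1764 carried the suffix and 329 met both conditions. Of the rest, 288 had no count in any library and 1147 had counts but stayed under the minimum. Just inside the limit were CAMTA2-AS1 (2.033 CPM), ENTPD3-AS1 (2.017) and ZNF571-AS1 (2.016), and just outside were GNAS-AS1 (1.999), RUFY1-AS1 (1.993) and SLC7A11-AS1 (1.991). The choice used the mean level only, so that level is a description. All 329 genes passed the filter on low counts and were tested, among 759 names with the suffix that did.

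Antisense transcripts arise on the opposite strand of a gene, often from the same open promoter region as the gene's own RNA, and many are capped, spliced and polyadenylated but present in few copies. Most such transcripts are kept low by early termination and by the nuclear RNA exosome, which degrades them from the 3′ end. A few have been studied as regulators of their partner gene or as binding partners of microRNAs and proteins, while for most no function is known. ARID1A is a subunit of the BAF (SWI/SNF) complex, which slides and evicts nucleosomes at promoters and enhancers. IDR1b lies in an intrinsically disordered region of ARID1A, one that takes no stable fold. EWS-FLI1 is the fusion oncoprotein of Ewing sarcoma and binds DNA through the ETS domain of FLI1, which recognises the letters GGAA.

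PolyA RNA was sequenced from HEK-293T, a line derived from human embryonic kidney, in 1 derivative with the ARID1A gene knocked out. These cells overexpressed an empty vector (here KO), wild-type ARID1A (WT) or ARID1A without IDR1b (ΔIDR1b), and on top of it a second empty vector or EWS-FLI1 (2 µg of plasmid, harvest after 48 h). The 6 groups held 2 libraries each, all share the knockout, and no unedited HEK-293T cells were sequenced. Nothing in the labels says that the 2 repeats of a group were separate cultures, so p-values measure the spread between these libraries, which may be technical. The stated aim was the role of IDR1b in gene regulation by EWS-FLI1.

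Library totals ran from 11702251 to 14445379 counts, and every AS gene was detected in every library at this depth. ARID1A stood at 147 to 164 CPM in the KO libraries, so transcripts of the edited gene remained, at 1839 to 2287 with WT and at 2604 to 2873 with ΔIDR1b. FLI1 was at or below 0.146 CPM in every library with the second empty vector. With EWS-FLI1 it stood at 1686 and 1827 CPM in KO, 3456 and 3669 in WT and 1884 and 1903 in ΔIDR1b. The introduced proteins' transcripts thus differed in level between the states compared, and the part of these levels in the results below was not tested. Of 8 markers of HEK-293T, KRT8, KRT18, VIM, NEFL, PAX2, LIN28B and CDH2 were at 7.75 CPM or more in every library and NEFM was at 1 count or none. Of markers that the line should lack, PTPRC and CD3E stayed at 2 counts or fewer, and HBB, ALB and MYH7 at 13 or fewer. POU5F1 reached 4.18 CPM.

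The AS genes were weakly expressed, with a median mean level of 4.99 CPM (range 2.02 to 217) and, per kilobase of exon, of 1.48 CPM (0.125 to 64.6). Their exons added up to a median of 3862 bases. Exons were placed on GRCh38 by the annotation in the authors' file. A gene with the sense name was found for 319 of them. In 141 pairs the genes lay head to head with overlapping ends, in 22 head to head but apart, and in 68 tail to tail with overlap. The AS gene lay inside its sense gene in 52 pairs and contained it in 33. In 2 pairs the genes lay tail to tail and apart, and in 1 both were on the same strand. The start sites of 95 pairs were within 1 kb of each other. The library protocol names no step that marks strand, from which the libraries are taken as unstranded, and no strand option was set in counting, so reads of an AS gene and of a gene that overlaps it cannot be told apart by strand. A total of 273 AS genes shared some exonic bases with another gene, and fragments that touched the exons of several genes were not counted. Of the 329, 206 had 50% or more of their exonic bases within the body of another gene, 109 had less, and 14 lay outside every other gene, and the last set shares no exonic base with another gene's body. In bulk RNA, fewer cells with a transcript and less of it per cell cannot be told apart.

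The promoters of 248 AS genes were in the RefSeq table (GRCh38.p14), each from 250 bases before to 50 bases after the start of the gene as RefSeq gives it. Those of 6 AS genes are shown as examples, picked by hand after their values were seen. Of these, 3 were lower with ΔIDR1b (NXT1-AS1, SREBF2-AS1 and THAP9-AS1) and 3 were higher (MCM3AP-AS1, TMPO-AS1 and CD63-AS1). They are read 5′ to 3′ on the strand of the gene. Their RefSeq starts lay 0 to 196 bases from the starts in the annotation used for counting, farthest for TMPO-AS1. Capitals mark GGAA or its reverse complement TTCC, the ETS core that FLI1 recognises.
NXT1-AS1: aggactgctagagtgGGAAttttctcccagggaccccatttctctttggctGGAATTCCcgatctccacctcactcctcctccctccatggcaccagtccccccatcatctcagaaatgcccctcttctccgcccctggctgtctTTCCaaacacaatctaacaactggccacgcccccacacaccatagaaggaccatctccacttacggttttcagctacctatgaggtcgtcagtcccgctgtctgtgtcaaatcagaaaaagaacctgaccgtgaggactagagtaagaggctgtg
SREBF2-AS1: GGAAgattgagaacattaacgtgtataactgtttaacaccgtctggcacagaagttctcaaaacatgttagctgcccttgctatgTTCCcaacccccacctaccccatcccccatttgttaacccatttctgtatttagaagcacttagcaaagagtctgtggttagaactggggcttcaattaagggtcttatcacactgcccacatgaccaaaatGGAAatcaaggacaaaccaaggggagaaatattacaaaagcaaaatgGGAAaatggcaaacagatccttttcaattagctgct
THAP9-AS1: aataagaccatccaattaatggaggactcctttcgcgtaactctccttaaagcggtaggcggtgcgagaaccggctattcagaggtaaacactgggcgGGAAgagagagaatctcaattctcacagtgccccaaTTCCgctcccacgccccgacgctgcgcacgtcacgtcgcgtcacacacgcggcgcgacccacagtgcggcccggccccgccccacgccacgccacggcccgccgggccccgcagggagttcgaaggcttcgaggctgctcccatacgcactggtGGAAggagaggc
MCM3AP-AS1: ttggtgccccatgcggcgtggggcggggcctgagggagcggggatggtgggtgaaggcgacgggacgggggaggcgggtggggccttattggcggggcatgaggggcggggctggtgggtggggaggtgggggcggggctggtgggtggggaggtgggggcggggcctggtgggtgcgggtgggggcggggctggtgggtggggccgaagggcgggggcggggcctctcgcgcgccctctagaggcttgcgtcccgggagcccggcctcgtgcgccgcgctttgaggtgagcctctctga
TMPO-AS1: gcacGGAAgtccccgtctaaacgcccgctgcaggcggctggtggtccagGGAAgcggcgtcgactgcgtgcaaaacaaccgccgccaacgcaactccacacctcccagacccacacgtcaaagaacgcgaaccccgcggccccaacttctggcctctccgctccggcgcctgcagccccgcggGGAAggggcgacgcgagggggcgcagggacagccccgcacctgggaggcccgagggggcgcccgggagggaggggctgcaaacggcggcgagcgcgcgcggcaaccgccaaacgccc
CD63-AS1: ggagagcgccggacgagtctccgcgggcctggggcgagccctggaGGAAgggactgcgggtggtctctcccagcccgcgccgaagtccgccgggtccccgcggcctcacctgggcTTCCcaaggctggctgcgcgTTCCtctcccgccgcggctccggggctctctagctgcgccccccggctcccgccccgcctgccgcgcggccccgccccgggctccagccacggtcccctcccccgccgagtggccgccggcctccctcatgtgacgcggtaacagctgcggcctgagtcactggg
These windows lie at chr20:23351418-23351717 (minus strand, NXT1-AS1), chr22:41834616-41834915 (minus, SREBF2-AS1), chr4:82900867-82901166 (minus, THAP9-AS1), chr21:46228981-46229280 (plus, MCM3AP-AS1), chr12:98516177-98516476 (minus, TMPO-AS1) and chr12:55728844-55729143 (plus, CD63-AS1). GGAA on either strand occurred 4 times in the windows of NXT1-AS1 and SREBF2-AS1, 3 times in those of THAP9-AS1, TMPO-AS1 and CD63-AS1, and not in that of MCM3AP-AS1. The G and C content of the 6 windows was 53.3%, 42% and 63.3% for the 3 lower genes and 77.3%, 73.3% and 77.7% for the 3 higher genes, in the order given. This contrast is that of picked genes. Over all AS promoters of genes called lower or higher with both vectors the medians were 63% and 67.7%.

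Over all 248 AS promoters the median G and C content was 64%, against 58.7% over the 34943 promoters in the table, and the median number of CG dinucleotides was 23.5 against 14. Unlike the AS genes, the 34943 were not limited by level of expression. The part of level in these and the next differences was not tested. GGAA was in 94% of AS promoters and in 95.5% of all promoters. The repeat GGAAGGAA, a pair of cores side by side, was in 1.61% against 3.68%, GGGCGG, the core of the GC box, in 59.3% against 44.9%, CCAAT in 31.5% against 34.7%, and TATAAA in 6.45% against 11.6%. Each motif was searched on both strands, and each GGAAGGAA also counts under GGAA. The 67 AS genes called lower with ΔIDR1b than in KO with both vectors had a median G and C content of 63%, the 15 called higher one of 67.7%, and the 83 called in no comparison one of 65.3%. GGAA was in 98.5%, 93.3% and 90.4% of these 3 sets, and GGGCGG in 59.7%, 60% and 61.4%.

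As a share of all counts, the AS genes were highest in KO. The 329 genes together took 0.427% ± 0.0141 of each KO library (SD, n = 4, both vectors), 0.308% ± 0.0155 with WT and 0.331% ± 0.0103 with ΔIDR1b. No test was made of these sums. The 4 KO libraries ran from 0.407% to 0.439%, the WT libraries from 0.291% to 0.325% and the ΔIDR1b libraries from 0.316% to 0.338%, so that KO did not overlap either of the others and these 2 overlapped. Without the 5 most abundant genes the ranges were 0.316% to 0.338% in KO, 0.229% to 0.248% in WT and 0.263% to 0.282% in ΔIDR1b, none of which overlap. Without the 40 genes at 20 CPM or more they were 0.186% to 0.198%, 0.131% to 0.141% and 0.159% to 0.170%. The 14 AS genes outside every other gene took 0.00967% to 0.0107% in KO, 0.00659% to 0.00723% in WT and 0.00974% to 0.0104% in ΔIDR1b, which leaves the WT libraries alone below KO in this set.

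Several other genes and groups of genes, the groups formed by name, were also highest in KO, but not all. NEAT1, the scaffold RNA of nuclear paraspeckles, took 0.219% to 0.254% of counts in KO, 0.0955% to 0.128% in WT and 0.0820% to 0.102% in ΔIDR1b. Genes known by an Ensembl number alone, which were not checked for being noncoding, took 0.592% to 0.627%, 0.451% to 0.503% and 0.442% to 0.478%. Divergent transcripts, named with the suffix DT, took 0.116% to 0.126%, 0.0811% to 0.0839% and 0.101% to 0.115%. Host genes of small RNAs, here HG genes, have names that begin with SNHG, or that begin with MIR and end with HG. They took 0.246% to 0.251%, 0.170% to 0.190% and 0.124% to 0.135%. Intergenic genes named LINC were lower in WT (0.0932% to 0.104%) than in KO (0.121% to 0.128%) but not in ΔIDR1b (0.127% to 0.133%). The share of mitochondrial transcripts overlapped between the states (1.75% to 2.40% over all libraries). The part of a general shift in noncoding or nuclear RNA in the results was not tested.

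With WT ARID1A put back, AS genes fell far more often than they rose. Against KO with the empty vector, 63 of 329 were called by edgeR's quasi-likelihood test (adjusted p under 0.05), 61 lower and 2 higher, while of all 20377 genes tested 11.7% were called, 5.19% lower and 6.50% higher. With EWS-FLI1 present, 111 were called, 108 lower and 3 higher, beside 18.1% of all genes, 8.36% lower and 9.72% higher. Among the 14526 genes at 2 CPM or more, the level of the AS genes, 15.3% and 23.5% were called. The lower calls made up 18.5% and 32.8% of the AS genes. The median log2 fold change was -0.39 and -0.48, against -0.01 and -0.02 over all genes and 0.04 and 0.03 over those 14526, and 270 and 269 of the 329 had a negative sign. With upper-quartile scaling the AS genes split into 1 higher and 69 lower, and 1 higher and 114 lower, and all genes into 898 higher and 1381 lower, and 1505 higher and 2062 lower. The count with the empty vector fell to 26 without KO replicate 2, 29 without WT replicate 1 and 40 without WT replicate 2, of which at most 1 was higher. With EWS-FLI1 it fell to 65 without either KO replicate. Of the 61 lower calls with the empty vector, 56 were also lower calls with EWS-FLI1 (91.8% and 51.9% of the lists, which share no library). None was called in the opposite direction. Recurrence was counted for AS genes only, so it cannot be set beside that of all genes.

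With ΔIDR1b, AS genes were called in both directions, more of them lower. Against KO with the empty vector 124 were called, 92 lower and 32 higher, beside 33.3% of all genes, 16.8% lower and 16.4% higher. With EWS-FLI1 147 were called, 121 lower and 26 higher, beside 35.9%, 17.9% lower and 18.1% higher. The share of AS genes called in either direction, 37.7% and 44.7%, was near that of all genes at 2 CPM or more, 40.8% and 43.9%. Lower calls made up 28.0% and 36.8% of the AS genes and higher calls 9.73% and 7.90%. The median log2 fold change was -0.29 and -0.30, against 0.00 and 0.02 over all genes, with 212 and 216 negative signs. Called falls past 2-fold were made by 63 and 76 AS genes, beside 6.42% and 7.43% of all genes, and called rises past 2-fold by 15 and 12, beside 5.00% and 5.18%. Of the 92 lower calls with the empty vector 84 recurred with EWS-FLI1 (91.3% and 69.4% of the lists), and of the 32 higher calls 20 did (62.5% and 76.9%). Here too the recurrence over all genes was not counted.

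Set directly against WT, ΔIDR1b had AS genes on both sides. With the empty vector 99 were called, 58 higher and 41 lower, beside 24.5% of all genes, 11.1% higher and 13.4% lower. With EWS-FLI1 88 were called, 46 higher and 42 lower, beside 18.6%, 8.48% higher and 10.1% lower. The share of AS genes called in either direction, 30.1% and 26.7%, stood beside 31.4% and 23.4% of all genes at 2 CPM or more. The median log2 difference was 0.05 and 0.13, against 0.01 and 0.01 over all genes. The number of calls and the balance of directions moved with single libraries. With the empty vector the count fell to 58 without WT replicate 1 (26 higher, 32 lower), 61 without WT replicate 2 (33 and 28), 51 without ΔIDR1b replicate 1 (29 and 22) and 55 without ΔIDR1b replicate 2 (28 and 27). With EWS-FLI1 it fell to 53 in a fit of only the libraries compared (31 higher and 22 lower), 57 without ΔIDR1b replicate 1 (28 and 29) and 54 without ΔIDR1b replicate 2 (26 and 28). With upper-quartile scaling and the empty vector the AS genes split into 65 higher and 35 lower, and all genes into 2791 higher and 2184 lower. Over the 6 comparisons of ARID1A states 220 AS genes (66.9%) were called in at least 1 and 109 in none, beside 54.3% of all genes and 64.2% of those at 2 CPM or more called in at least 1.

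**Figure D1:**
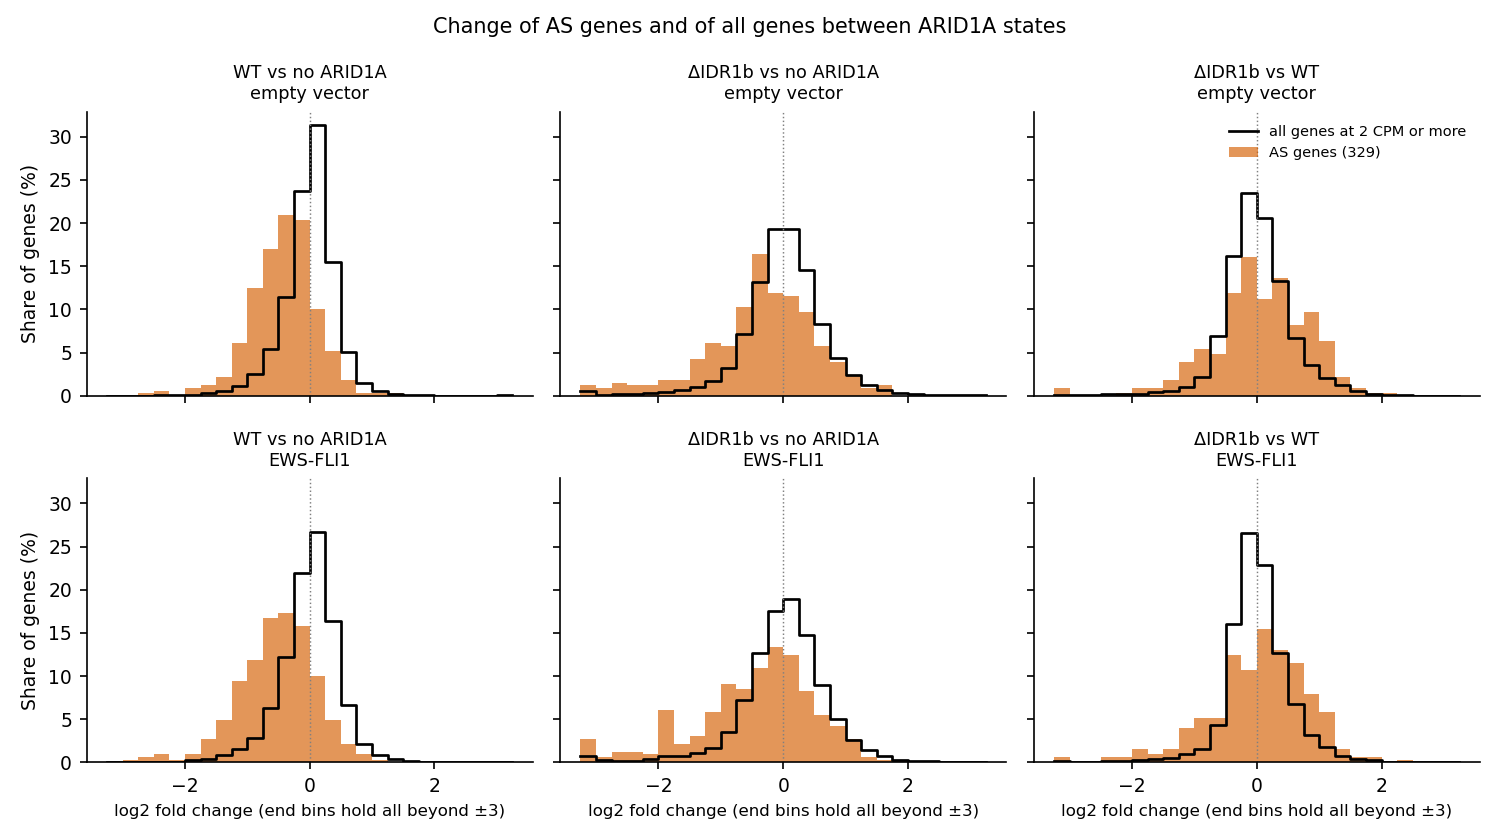
Share of genes (%) by log2 fold change in bins of 0.25 for the 329 AS genes (bars) and all 14526 genes at 2 CPM or more (line), in the 6 comparisons of ARID1A states (no ARID1A is KO). The bars lie left of the line in the WT panels (medians -0.39 and -0.48) and in the ΔIDR1b panels against KO (-0.29 and -0.30), and around 0 for ΔIDR1b against WT.

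THAP9-AS1 and SLC16A4-AS1 had the highest mean levels of the AS genes, 217 and 184 CPM, or 49.3 and 64.6 CPM per kilobase. Levels by library are given from here on as CPM scaled by edgeR's TMM factors, and changes on the log2 scale. THAP9-AS1 (chr4:82893009-82900960, minus strand) starts 276 bases from THAP9, a gene derived from a DNA transposase. It stood at 313 and 353 CPM in KO with the empty vector, 237 and 259 in WT and 86.9 and 99.5 in ΔIDR1b, and with EWS-FLI1 at 342 and 320.3, 259 and 171, and 119 and 78.9. Every ΔIDR1b library was below every WT library and every WT library below every KO library. The fall with ΔIDR1b against KO was -1.84 (SE 0.15, adjusted p = 1.22e-11) with the empty vector and -1.74 (SE 0.15, adjusted p = 3.48e-11) with EWS-FLI1 on the log2 scale. That with WT was -0.43 (adjusted p = 0.0453, but 0.313 without KO replicate 2 and 0.296 without WT replicate 1) and, with EWS-FLI1, -0.62 (adjusted p = 0.00208, but 0.0603 by DESeq2). THAP9 itself ran from 10.1 to 13.6 CPM, with all groups overlapping, and the ratio of THAP9-AS1 to THAP9 fell by 1.82 and 1.68 with ΔIDR1b.

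SLC16A4-AS1 (chr1:110370154-110373003, plus strand) lies within SLC16A4, a gene of the monocarboxylate transporter family, and shares no exonic base with another gene. Its levels were 265 and 309 CPM in KO, 189 and 193 in WT and 86.1 and 89.3 in ΔIDR1b with the empty vector, and 316 and 293, 209 and 125, and 85.3 and 78.9 with EWS-FLI1, again in 3 separate steps. The log2 change with ΔIDR1b against KO was -1.71 (SE 0.14, adjusted p = 1.41e-11) and -1.89 (SE 0.14, adjusted p = 1.22e-12). SLC16A4 fell as well, by 1.18 and 1.05, and the ratio of the pair fell by 0.52 (adjusted p = 0.0223, but 0.167 without KO replicate 2) and 0.84 (adjusted p = 0.000312).

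The next 3 genes by mean level did not follow this order. OIP5-AS1 (12 CPM per kilobase), also known as Cyrano and studied for its binding of miR-7, was at 128 to 134 CPM in all 4 KO libraries, 140 to 193 in WT and 152 to 159 in ΔIDR1b. It was called higher with WT with both vectors, by 0.39 (adjusted p = 0.0206) and 0.35 (adjusted p = 0.0301), and each call was lost in 5 of the alternatives, with an adjusted p up to 0.177 without KO replicate 2 and 0.597 without WT replicate 1 with EWS-FLI1. GABPB1-AS1 starts head to head with GABPB1, a subunit of the ETS factor GABP. It was at 131 to 150 CPM in KO, 94.6 to 105 in WT and 123 to 133 in ΔIDR1b, so that WT did not overlap the other states. Its fall with WT and EWS-FLI1 was -0.57 (adjusted p = 0.000132), and with the empty vector -0.38 (adjusted p = 0.0114, but 0.145 without WT replicate 1). SLC9A3-AS1 was at 83 to 93.2 CPM in KO, 50.8 to 67 in WT and 57.2 to 68 in ΔIDR1b.

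AS genes of the HOX clusters, chosen as a group after their values were seen, were more often called lower than higher against KO. With WT 5 of 8 were lower when EWS-FLI1 was absent and 6 when it was present, and none was higher, while with ΔIDR1b 6 were lower and 2 higher, and 6 lower and 1 higher. Of all AS genes, 18.5% and 32.8% were lower with WT and 28.0% and 36.8% with ΔIDR1b. Of all genes tested, 5.19% and 8.36% were lower with WT and 16.8% and 17.9% with ΔIDR1b. Higher calls with ΔIDR1b made up 9.73% and 7.90% of the AS genes and 16.4% and 18.1% of all genes. HOX genes encode the transcription factors that set position along the body axis, and 8 AS genes named for HOX clusters were among the 329. HOXA-AS3 (chr7:27129977-27155928, plus strand) was at 85.7 and 92.5 CPM in KO, 22.7 and 23.3 in WT and 17 and 14.2 in ΔIDR1b with the empty vector, and at 82.8 and 82.4, 16.8 and 16.4, and 12.5 and 10.1 with EWS-FLI1. KO libraries were thus more than 3 times above all others. The change against KO was -1.95 (SE 0.13, adjusted p = 3.84e-12) and -2.31 (SE 0.14) with WT and -2.51 (SE 0.14) and -2.87 (SE 0.14) with ΔIDR1b. HOXC-AS2 was at 16.3 to 17.2 CPM in KO, 5.26 to 7.75 in WT and 6.59 to 8.32 in ΔIDR1b, with changes from -1.10 to -1.42, all called. The calls with WT of HOXB-AS3, HOXC-AS1 and HOXB-AS1 with both vectors, and of HOXA-AS2 with EWS-FLI1, were each lost without a single library. HOXB-AS3 changed by -0.64 and -0.76 (adjusted p up to 0.165 without KO replicate 2 and 0.133 without WT replicate 1), HOXC-AS1 by -0.90 and -1.07 (up to 0.247 without KO replicate 1 and 0.109 without KO replicate 2) and HOXB-AS1 by -1.41 and -1.54 (up to 0.463 without WT replicate 1 and 0.163 without KO replicate 2). HOXA-AS2 changed by -0.81 with EWS-FLI1 (0.0582 without KO replicate 2). With ΔIDR1b HOXA-AS2, HOXB-AS3 and HOXC-AS1 were called lower with both vectors, as was HOXB-AS1, whose calls were lost without single libraries (adjusted p = 0.101 without ΔIDR1b replicate 1 with the empty vector and 0.0564 without KO replicate 2 with EWS-FLI1). HOXD-AS2 went the other way, from 10.4 to 13.6 CPM in KO and 8.42 to 12 in WT to 15.5 to 21.5 in ΔIDR1b. It rose against WT by 0.87 (adjusted p = 0.00113) and 0.89 (adjusted p = 0.00164), and HOXB-AS4 was higher against KO by 1.37 with the empty vector (adjusted p = 0.0318, but 0.33 without KO replicate 2) and by 1.10 with EWS-FLI1, which was not called (adjusted p = 0.0764).

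The largest falls with WT against KO were, with the empty vector, those of SREBF2-AS1, GOLGA4-AS1, TMEM202-AS1, HOXA-AS3 and TICAM2-AS1, and with EWS-FLI1 those of NXT1-AS1, LIX1L-AS1, TMEM202-AS1, TICAM2-AS1 and HOXA-AS3. TMEM202-AS1 went from 13.9 and 12.8 CPM in KO to 3.19 and 1.79 in WT and 1.46 and 1.14 in ΔIDR1b with the empty vector, and from 13.2 and 12.8 to 2.03 and 2.12, and 1.34 and 0.763 with EWS-FLI1. Its changes with WT were -2.42 (SE 0.29, adjusted p = 4.07e-07) and -2.65 (SE 0.30, adjusted p = 7.84e-08), and those with ΔIDR1b were -3.36 and -3.62. SREBF2-AS1 is head to head with SREBF2, which encodes the master regulator of cholesterol synthesis genes. It stood at 7.54 to 9.87 CPM in KO, 1.34 to 3.18 in WT and 1.20 to 1.53 in ΔIDR1b, with changes of -2.54, -1.51, -2.66 and -2.56, the first pair for WT. SREBF2 moved the opposite way with WT, by 0.40 (adjusted p = 0.00515) and 0.60 (adjusted p = 3.48e-05), from 187 to 210.0 CPM in KO to 264 to 298 in WT. LIX1L-AS1 was at 10.8 to 13.5 CPM in KO, 1.74 to 3.5 in WT and 0.424 to 1.78 in ΔIDR1b. GOLGA4-AS1 changed by -2.48 (SE 0.48, adjusted p = 0.000578) with WT and the empty vector and by -0.66 (adjusted p = 0.335) with EWS-FLI1, which was not called. TICAM2-AS1 changed by -1.78 (adjusted p = 0.00139, but 0.0847 without WT replicate 1) and -2.38 (adjusted p = 5.57e-05).

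Against KO the largest falls with ΔIDR1b were those of PNN-AS1, KLF3-AS1, NXT1-AS1, LIX1L-AS1, TMEM202-AS1 and KIF23-AS1. PNN-AS1 (chr14:39174885-39175880, minus strand) starts 697 bases from PNN, the gene of pinin, a nuclear protein tied to splicing and cell adhesion. It stood at 17 and 22.3 CPM in KO, 10.6 and 5.82 in WT and 1.24 and 0.499 in ΔIDR1b with the empty vector, and at 21 and 23.6, 8.72 and 4.99, and 0.283 and 0.416 with EWS-FLI1. The states did not overlap. The change with ΔIDR1b was -4.49 (SE 0.35, adjusted p = 4.74e-12) and -5.96 (SE 0.40, adjusted p = 1.3e-13) against KO, and -3.23 and -4.26 against WT. PNN fell too, but by 0.75 and 0.83 against KO, from 519 to 568 CPM to 303 to 314, and the ratio of the pair fell by 3.81 (SE 0.40) and 5.05 (SE 0.40).

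KLF3-AS1 is head to head with KLF3, a transcriptional repressor. Its levels were 6.01 to 10.3 CPM in KO, 2.8 to 5.42 in WT and 0.283 to 0.584 in ΔIDR1b, with a change of -3.75 (SE 0.40, adjusted p = 6.56e-09) and -4.86 (SE 0.43, adjusted p = 1.04e-10) against KO and of -3.01 and -3.29 against WT. KLF3 itself ran from 10.4 to 20.9 CPM and rose with ΔIDR1b and EWS-FLI1 by 0.59 (adjusted p = 0.0142). NXT1-AS1, beside the gene of an mRNA export factor, had 137 counts over the 2 KO libraries with the empty vector, 45 over those of WT and 3 over those of ΔIDR1b. The ratio of KO to ΔIDR1b was 43.4 (95% interval 14.5 to 212.8, counting error only) and that of WT to ΔIDR1b 13.8 (4.42 to 69.3). With EWS-FLI1 NXT1-AS1 was called lower in ΔIDR1b than in KO, but its difference between ΔIDR1b and WT was not called. KIF23-AS1, beside the gene of a kinesin that acts in cytokinesis, changed by -2.96 (SE 0.34, adjusted p = 3.31e-08) with the empty vector.

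USP3-AS1 was called lower with ΔIDR1b against both KO and WT, and was not called between WT and KO. This gene, which overlaps the end of the histone deubiquitinase gene USP3, was at 4.23 to 7.02 CPM in KO, 3.86 to 6.41 in WT and 0.919 to 1.31 in ΔIDR1b. It changed by -2.19 (SE 0.35, adjusted p = 2.31e-05) and -2.11 (SE 0.37, adjusted p = 0.000118) between ΔIDR1b and WT, and by -0.31 and -0.18 between WT and KO, which were not called. USP3 ran from 16.5 to 23.7 CPM and was called in no comparison. KMT2E-AS1 and PRC1-AS1 were lower with WT as well and fell further with ΔIDR1b. KMT2E-AS1, inside a gene of the MLL family, was at 13 to 15.7 CPM in KO, 4.54 to 8.13 in WT and 1.68 to 2.93 in ΔIDR1b, and changed by -1.71 (adjusted p = 3.24e-05) against WT with the empty vector. PRC1-AS1, inside the gene of a microtubule crosslinker of the mitotic spindle, shares 42.1% of its exonic bases with other genes. It was at 30.1 to 35.8 CPM in KO, 12.9 to 23.4 in WT and 3.11 to 5.55 in ΔIDR1b, and PRC1 at 14.7 to 23.5, 9.54 to 15.1 and 3.89 to 5.78, so that both fell with ΔIDR1b (PRC1 by 2.01 and 2.04). With EWS-FLI1, PRPF31-AS1, ACBD3-AS1 and COA6-AS1 were also among the 5 largest falls from WT to ΔIDR1b, with log2 changes of -2.38, -2.35 and -2.24.

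Fewer AS genes were higher with ΔIDR1b than in KO. MCM3AP-AS1 overlaps the end of MCM3AP, the gene of an mRNA export scaffold. It stood at 10.6 and 9.85 CPM in KO, 8.62 and 9.55 in WT and 19.6 and 21.1 in ΔIDR1b with the empty vector, and at 10.5 and 11.2, 10.2 and 12.9, and 25.5 and 21.7 with EWS-FLI1. All 4 ΔIDR1b libraries were above the other 8, which overlapped. The rise was 0.99 (SE 0.18, adjusted p = 7.07e-05) and 1.12 (SE 0.18, adjusted p = 1.07e-05) against KO, and 1.16 and 1.03 against WT. The ratio to MCM3AP rose by 1.13 (adjusted p = 0.000637) with EWS-FLI1 and by 0.84 (adjusted p = 0.0124, but 0.0919 without KO replicate 2) with the empty vector. HSD17B1-AS1, beside an estradiol-forming dehydrogenase gene, was at 2.08 to 3.49 CPM in KO, 1.26 to 2.01 in WT and 5.65 to 7.59 in ΔIDR1b, a rise of 2.07 (SE 0.35, adjusted p = 4.3e-05) and 1.97 (SE 0.36, adjusted p = 0.00018) against WT. It shares 65.5% of its exonic bases with exons of other genes.

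TMPO-AS1 (opposite the gene of a nuclear lamina protein) was at 1.42 to 3.10 CPM in KO, 2.04 to 3.05 in WT and 4.86 to 7.30 in ΔIDR1b. It rose by 1.68 (SE 0.35, adjusted p = 0.000277) against KO with the empty vector and by 0.98 (adjusted p = 0.0269, but 0.242 without KO replicate 1) with EWS-FLI1, while TMPO ran from 198 to 266 CPM in all groups. CD63-AS1, opposite the gene of the exosome marker CD63, was at 0.604 to 1.28 CPM in KO, 0.902 to 1.82 in WT and 2.69 to 4.45 in ΔIDR1b, with a rise of 1.69 (SE 0.45, adjusted p = 0.00418) and 1.84 (adjusted p = 0.00305, but 0.0714 without KO replicate 2). PARD6G-AS1 rose by 1.57 (SE 0.34, adjusted p = 0.000517) with the empty vector and by 0.99 with EWS-FLI1 (adjusted p = 0.0221, but 0.418 without KO replicate 1). Against WT, C21orf62-AS1 rose by 1.96 and 1.74, and with EWS-FLI1 ATP6V0E2-AS1 rose by 2.38, ZNF407-AS1 by 1.96 and RHPN1-AS1 by 1.59, calls that held without any single library. Other rises past the test rested on single libraries. DLG5-AS1 rose by 1.41 against KO with the empty vector (adjusted p = 0.0189, but 0.274 without KO replicate 2). With EWS-FLI1, CPB2-AS1 rose by 1.42 (0.0113, but 0.142 without KO replicate 2) and RAB33B-AS1 by 1.38 (0.0169, but 0.311 without KO replicate 1).

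SLC16A1-AS1 was called lower with WT and higher with ΔIDR1b, both against KO. The gene, chosen after its values were seen, is head to head with SLC16A1, the gene of a lactate transporter. It was at 29.5 and 29.1 CPM in KO, 18.3 and 17 in WT and 44.9 and 36.8 in ΔIDR1b with the empty vector, and at 35.9 and 33.5, 20.4 and 25.4, and 54.6 and 44.4 with EWS-FLI1, with no overlap between the states. ΔIDR1b was above WT by 1.21 (SE 0.15, adjusted p = 4.92e-07) and 1.11 (SE 0.15, adjusted p = 2e-06). WT was below KO by -0.73 (adjusted p = 0.00156) and -0.60 (adjusted p = 0.00469, but 0.0652 without KO replicate 1), and ΔIDR1b above KO by 0.48 (adjusted p = 0.011, but 0.205 without ΔIDR1b replicate 1) and 0.51 (adjusted p = 0.00551, but 0.142 without ΔIDR1b replicate 1). SLC16A1 was at 388 to 402 CPM in KO, 431 to 466 in WT and 377 to 398 in ΔIDR1b, and was not called in these comparisons.

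**Figure D2:**
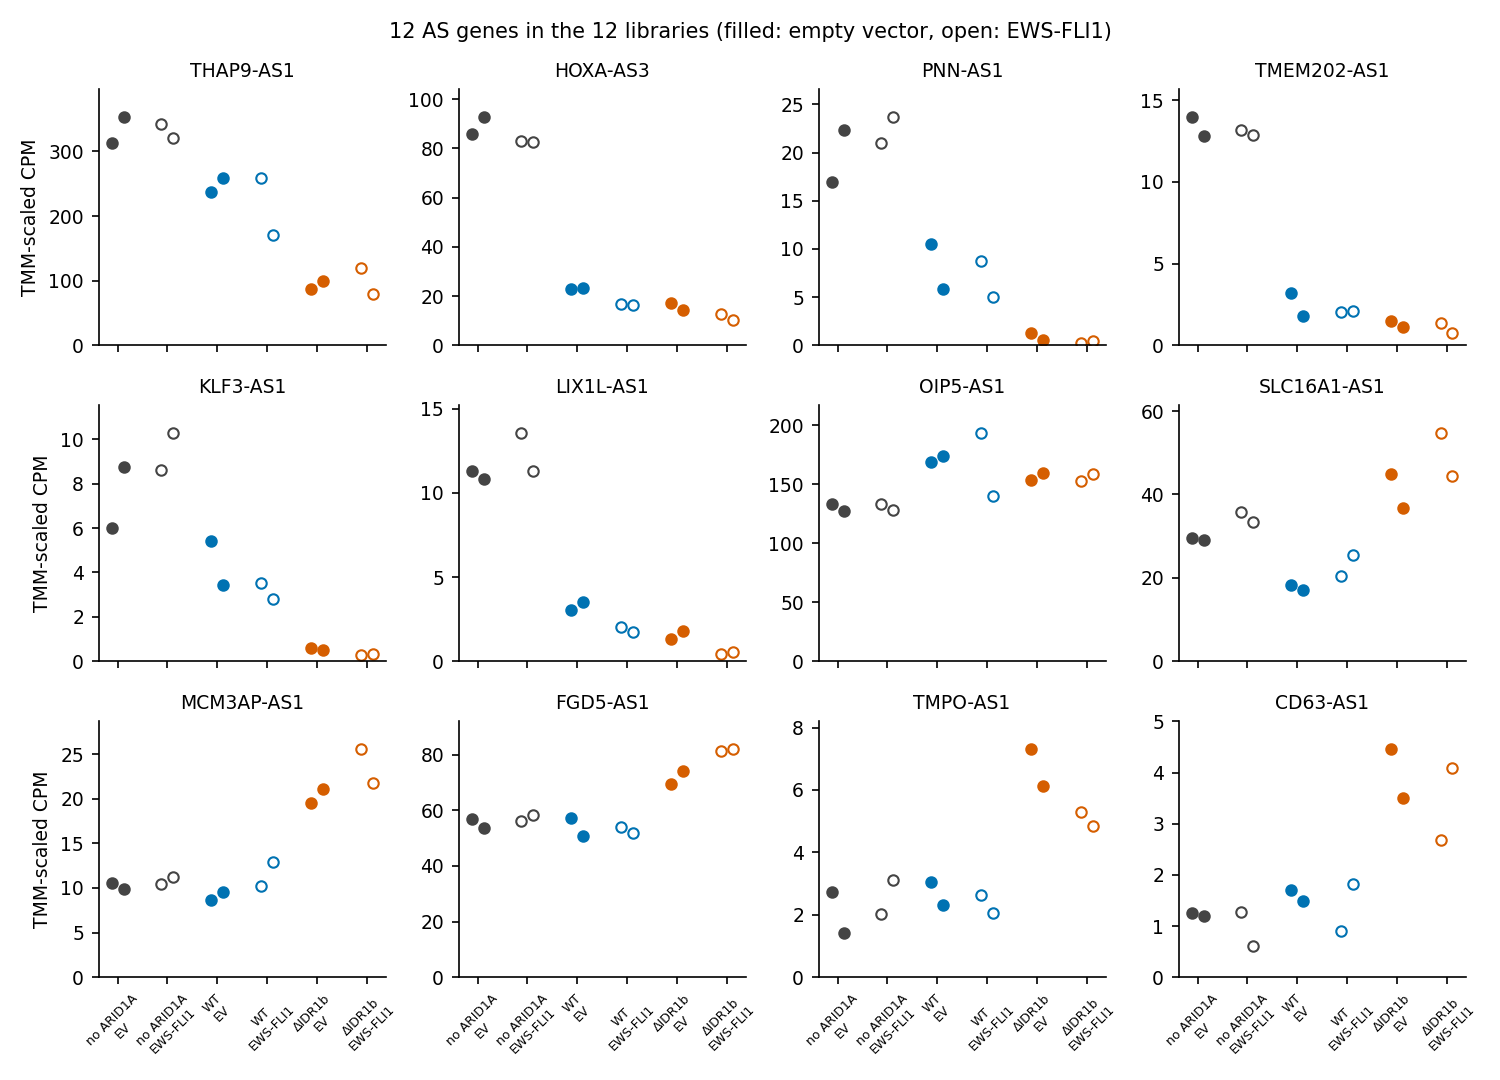
TMM-scaled CPM of 12 AS genes in each library, with filled points for the second empty vector (EV) and open points for EWS-FLI1, by ARID1A state (no ARID1A is KO). The first 6 genes are highest in KO, OIP5-AS1 is lowest in KO, and in the last 5 all ΔIDR1b libraries lie above those of WT, as for MCM3AP-AS1 (19.6 to 25.5 CPM against 8.62 to 12.9).

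Among the AS genes are several with a literature of their own, listed here from general knowledge. Of 42 names listed, 25 were among the 329. With WT against KO and the empty vector 1 was called higher and 4 lower, and with EWS-FLI1 3 higher and 8 lower, with a median of -0.17 and -0.23. With ΔIDR1b against KO 6 were higher and 5 lower, and with EWS-FLI1 5 and 5. The shares of the list called, 20%, 44%, 44% and 40%, stand beside 11.7%, 18.1%, 33.3% and 35.9% of all genes and 15.3%, 23.5%, 40.8% and 43.9% of those at 2 CPM or more. Against WT, ΔIDR1b had 6 higher and 2 lower with either vector, with a median of 0.26 and 0.23. These were 32% of the list each time, beside 24.5% and 18.6% of all genes and 31.4% and 23.4% of those at 2 CPM or more. FGD5-AS1 was at 53.7 to 58.4 CPM in KO, 50.7 to 57.3 in WT and 69.3 to 81.8 in ΔIDR1b. With EWS-FLI1 it was higher in ΔIDR1b than in KO by 0.51 (SE 0.11, adjusted p = 0.00064) and than in WT by 0.62 (SE 0.11, adjusted p = 0.000199). STARD4-AS1, opposite a cholesterol transport gene, was at 15.7 to 18.1 CPM in KO, 5.75 to 8.80 in WT and 4.73 to 5.64 in ΔIDR1b. It fell against KO with WT (-0.90 and -1.41) and with ΔIDR1b (-1.64 and -1.91), and STARD4 fell with ΔIDR1b (-1.26 and -1.14). TMEM147-AS1 was higher in ΔIDR1b than in WT by 1.13 (SE 0.24, adjusted p = 0.000565) with the empty vector. PSMA3-AS1 was at 57.8 to 71.2 CPM in KO and 34.2 to 45.6 in ΔIDR1b, a change of -0.74 (SE 0.15, adjusted p = 0.000147) with EWS-FLI1 and of -0.59 (adjusted p = 0.00168, but 0.0626 without KO replicate 2) with the empty vector. With ΔIDR1b and the empty vector SOX21-AS1 rose by 0.80 against KO (adjusted p = 0.00425, but 0.0711 without ΔIDR1b replicate 1) and SOX21, a transcription factor of neural progenitors, by 1.70 (adjusted p = 1.74e-06). MAPKAPK5-AS1 was called higher with WT and EWS-FLI1, by 0.53 (adjusted p = 0.0124, but 0.173 without KO replicate 2), as was LOXL1-AS1, by 0.50, a call at the threshold (adjusted p = 0.0499) that was lost in 15 alternatives, with an adjusted p up to 0.423. CARS1-AS1, outside the list, rose by 1.21 with WT and the empty vector (adjusted p = 0.0203, but 0.23 without WT replicate 2).

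The sense genes had medians near 0 where the AS genes fell. In 308 pairs both genes passed the filter. The median log2 fold change of the sense genes was 0.01 and 0.02 with WT against KO, 0.05 and -0.02 with ΔIDR1b against KO, and 0.02 and -0.03 with ΔIDR1b against WT, the empty vector first. With WT 40 and 72 sense genes were called, 19 higher and 21 lower, and 35 higher and 37 lower. With ΔIDR1b against KO 120 and 127 were called, 61 higher and 59 lower, and 65 higher and 62 lower. These were 13%, 23.4%, 39.0% and 41.2% of the 308 sense genes, beside 11.7%, 18.1%, 33.3% and 35.9% of all genes. Where the AS gene was called lower with WT and EWS-FLI1, the sense gene was lower in 15 pairs, higher in 12 and not called in 68. With ΔIDR1b and EWS-FLI1 these counts were 29, 22 and 57. Where the AS gene was called higher with ΔIDR1b against KO and the empty vector, the sense gene was lower in 4, higher in 9 and not called in 16. Across the 308 pairs, which are not independent replicates and share libraries, Pearson's r between the log2 changes of AS and sense gene was 0.12 and 0.07 with WT, and 0.25 and 0.18 with ΔIDR1b against KO.

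The ratio of AS to sense counts within a library, which needs no scaling between libraries, was tested with limma over 713 pairs of any level. With WT against KO the ratio was called lower in 29 and higher in 1 of the 308 pairs with the empty vector (5.33% of the 713 were called) and lower in 57 and higher in 5 with EWS-FLI1 (10.8%). With ΔIDR1b against KO it was lower in 69 and higher in 19 (19.2%), and with EWS-FLI1 lower in 84 and higher in 15 (23.7%). Between ΔIDR1b and WT it was lower in 28 and higher in 24 (9.96%), and with EWS-FLI1 lower in 29 and higher in 26 (10.2%). The median log2 ratio changed by -0.36, -0.44, -0.32, -0.36, 0.01 and 0.09 in these 6 comparisons. Over all 713 pairs, which include the 308, it changed by -0.41, -0.46, -0.39, -0.47, -0.03 and -0.0003. The shares in brackets also include the 308 pairs, and the other pairs hold AS genes of lower level. Several of the counts fell by more than 1.5 times without a library. For WT against KO with the empty vector, 30 pairs fell to 18 and 6 without KO replicates 1 and 2 and to 13 without WT replicate 1, and with EWS-FLI1 62 fell to 40 and 31 without KO replicates 1 and 2 and to 41 and 37 without WT replicates 1 and 2. For ΔIDR1b against KO with the empty vector 88 fell to 55 without KO replicate 2 and to 54 and 55 without ΔIDR1b replicates 1 and 2. For ΔIDR1b against WT 52 fell to 26 without WT replicate 1 and to 23 and 26 without ΔIDR1b replicates 1 and 2, and with EWS-FLI1 55 fell to 24 without WT replicate 1 and to 23 and 32 without ΔIDR1b replicates 1 and 2.

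The pair that moved apart most in the other direction was GLIPR1-AS1 and GLIPR1, whose AS gene lies within the body of the sense gene and shares no exonic base with it. GLIPR1, a secreted protein of the CAP superfamily, was at 28.7 to 37 CPM in KO, 9.84 to 22.9 in WT and 1.27 to 2.71 in ΔIDR1b, and GLIPR1-AS1 at 2.07 to 3.66, 2.08 to 4.36 and 2.71 to 6.29. The ratio of AS to sense rose by 4.31 (SE 0.43, adjusted p = 7.99e-08) and 5.14 (SE 0.43, adjusted p = 5.26e-10) with ΔIDR1b against KO, and by 3.33 and 3.39 against WT. Here the sense gene fell, by 3.87 and 3.94, while GLIPR1-AS1 was not called with the empty vector (0.50, adjusted p = 0.31) and was called higher with EWS-FLI1 (1.08, adjusted p = 0.0147, but 0.214 without KO replicate 2). The opposite pattern, an AS gene that fell and a sense gene that rose, was seen for YWHAH-AS1 and YWHAH, a gene of the 14-3-3 family, and RBM38-AS1 and RBM38, an RNA-binding protein. With ΔIDR1b and EWS-FLI1 against KO, YWHAH-AS1 changed by -2.46 (SE 0.45) and YWHAH by 0.46 (adjusted p = 0.000997), and RBM38-AS1 by -2.46 (SE 0.33) and RBM38 by 0.47 (adjusted p = 0.0131). BTG3-AS1 fell with WT (-1.59 and -1.76) while BTG3 was not called (-0.10 and 0.04).

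**Figure D3:**
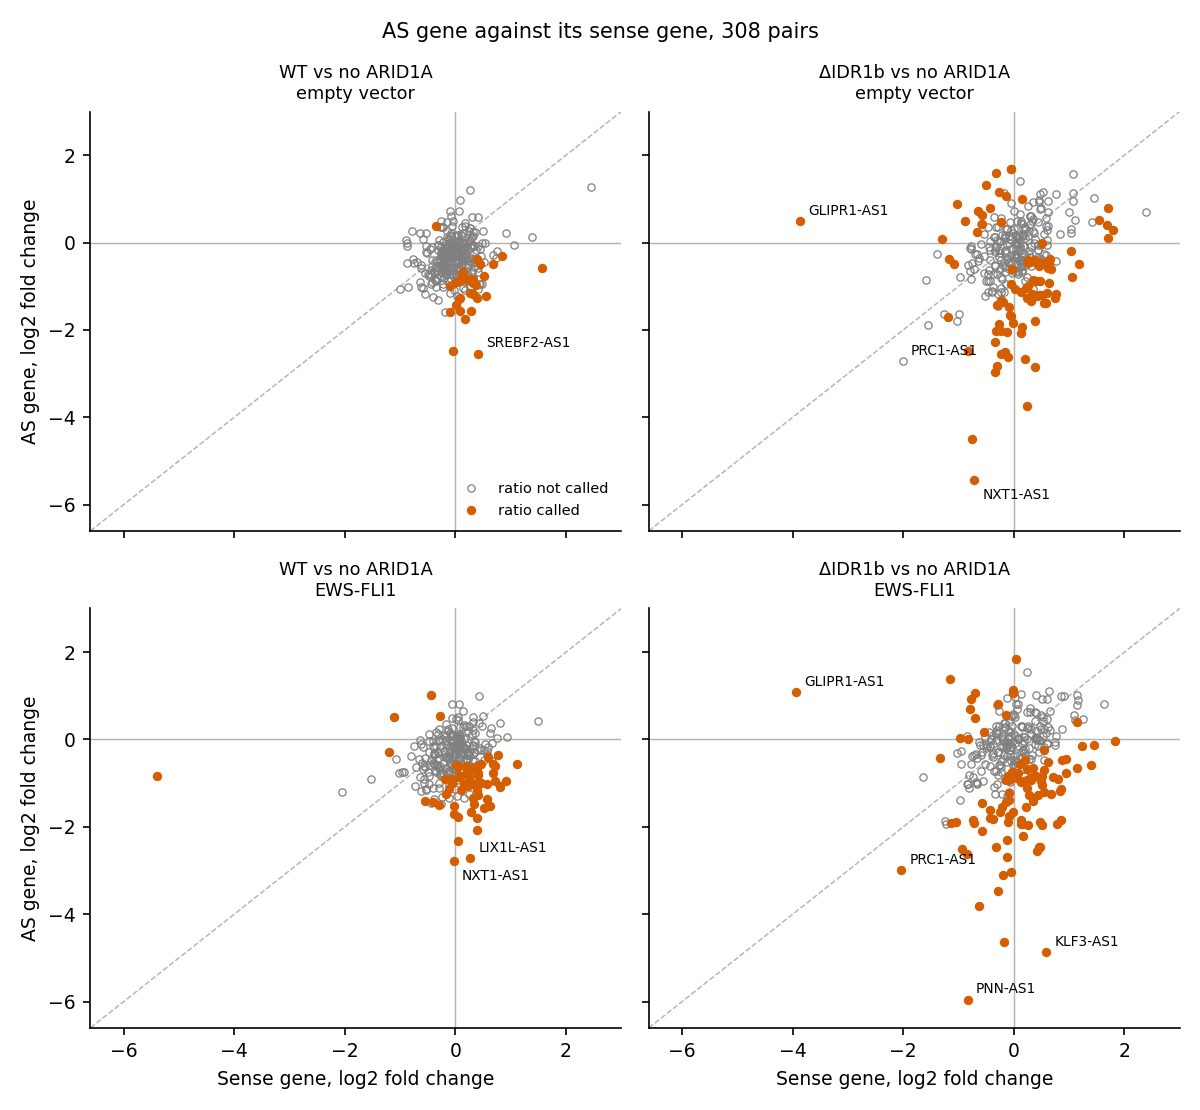
Log2 fold change of 308 AS genes against that of their sense genes, for WT and ΔIDR1b against KO (no ARID1A) with each vector, with filled points where the ratio of AS to sense was called by limma (adjusted p under 0.05) and a dashed line of equal change. Most called pairs lie below the line (29, 57, 69 and 84 pairs), GLIPR1-AS1 is far above it with ΔIDR1b, and the far-left point with WT and EWS-FLI1 is C21orf62, which had no count there, so that its fold change is no measure of size.

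By position, the medians spread more widely with ΔIDR1b than with WT. With WT against KO every main class had a negative median, from -0.15 to -0.59 among pairs by arrangement. The medians were -0.50 and -0.59 for the 141 head-to-head overlapping pairs, -0.28 and -0.36 for the 68 tail-to-tail pairs, -0.38 and -0.38 for the 52 AS genes inside their sense gene and -0.23 and -0.15 for the 33 that contain it. With ΔIDR1b against KO these medians were -0.35 and -0.30, -0.10 and -0.18, -0.55 and -0.71, and 0.09 and 0.18. The medians of their sense genes were 0.03 and -0.03, 0.08 and 0.08, -0.12 and -0.12, and 0.39 and 0.32. The sense genes thus rose as well in the last class. The 14 AS genes outside every other gene had medians of -0.36 and -0.59 with WT and of 0.12 and 0.02 with ΔIDR1b. AS genes with 50% or more of their exons in other gene bodies had -0.37 and -0.45 with ΔIDR1b, and those with less -0.16 and -0.17. The 71 AS genes under 2 kb of exon had -0.60 and -0.79 with ΔIDR1b, and the 258 longer ones -0.17 and -0.18, while with WT and the empty vector they had -0.41 and -0.38. By level, the 165 genes at 2 to 5 CPM, 124 at 5 to 20 and 40 at 20 or more had medians of -0.44, -0.39 and -0.22 with WT and the empty vector and of -0.44, -0.54 and -0.45 with EWS-FLI1. The differences between classes were not tested.

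**Figure D4:**
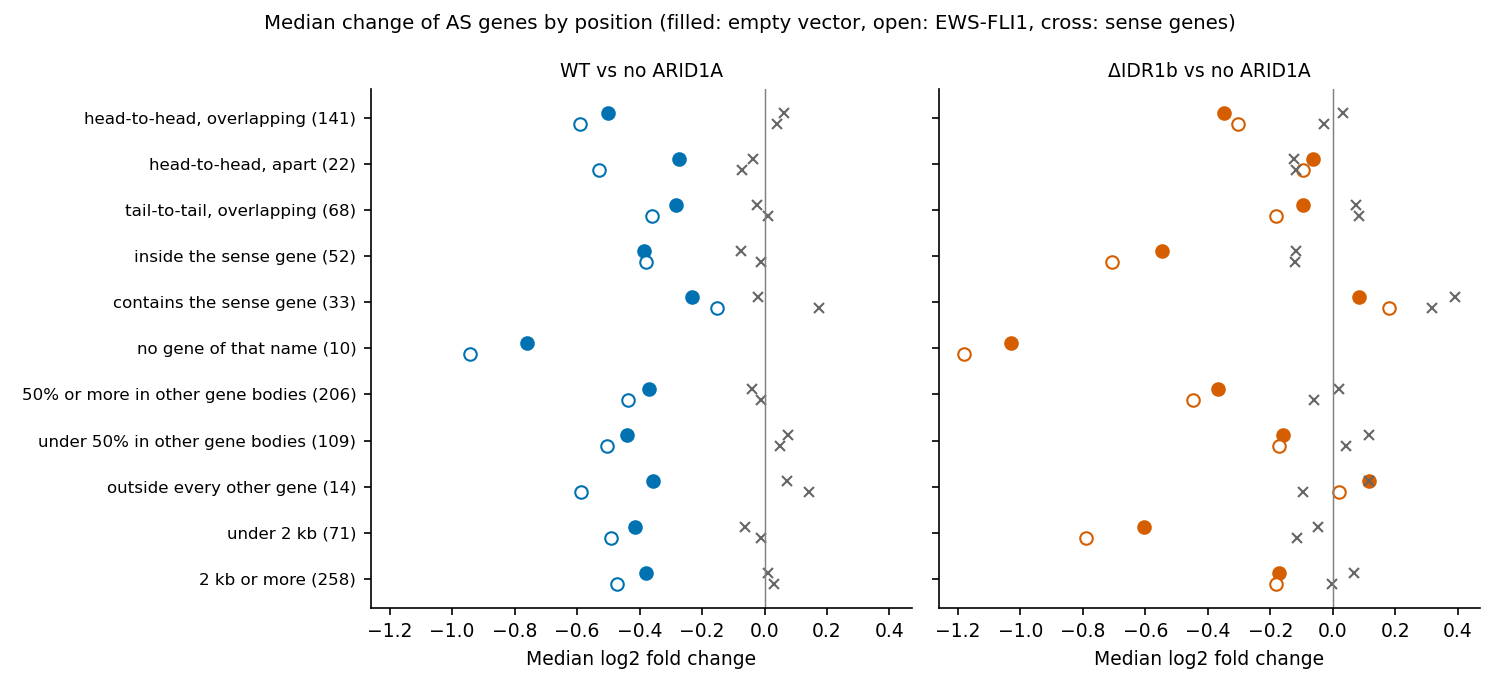
Median log2 fold change of AS genes by arrangement with the sense gene, position and exonic length (number of AS genes in brackets), for WT and ΔIDR1b against KO (no ARID1A), with filled points for the second empty vector, open points for EWS-FLI1 and crosses for the median of the sense genes. All AS medians lie below 0 with WT, and with ΔIDR1b those of AS genes that contain their sense gene (0.09 and 0.18) or lie outside every gene (0.12 and 0.02) do not.

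Few AS genes were called for EWS-FLI1 at this depth. Averaged over the 3 ARID1A states, 1 of 329 was called against the second empty vector, beside 0.466% of all genes. By the same test 40 AS genes had an unadjusted p under 0.05, beside 1610 of all 20377 genes. The called gene was HOXA-AS3, which was lower by -0.35 (SE 0.08, adjusted p = 0.0351). This call was lost in 9 of the alternatives, with an adjusted p up to 0.238 without ΔIDR1b replicate 1 of the empty vector. The count itself was 5 without WT replicate 1 with EWS-FLI1 and 2 without WT replicate 2 with EWS-FLI1. It was 0 without either KO or either WT library of the empty vector, either KO library with EWS-FLI1, ΔIDR1b replicate 1 of the empty vector or ΔIDR1b replicate 2 with EWS-FLI1. Within KO, WT and ΔIDR1b edgeR called 0 AS genes, and DESeq2 also called 0. By edgeR 6, 17 and 24 AS genes had an unadjusted p under 0.05, beside 643, 1331 and 1110 of all 20377 genes. In WT the count was 2 without WT replicate 1 with EWS-FLI1. A replicate block within each vector gave 2 calls in WT, 2 in ΔIDR1b and 4 averaged over the states. With it 532 of all genes were called in the average comparison, against 95 in the main fit. The main fit held no such block, although differences between repeats correlated positively, if weakly, within a vector (0.0789 to 0.343). The 3 interactions, which ask whether the effect of EWS-FLI1 differs between ARID1A states, gave 0 calls by both tools. By edgeR 13, 15 and 11 AS genes had an unadjusted p under 0.05 there, beside 884, 702 and 741 of all genes. The ratio to the sense gene was called for 0 pairs by limma in the average comparison, with 23 at an unadjusted p under 0.05. The same block gave 4 pairs, and no other tool was run on the ratio.

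Factors of RNA decay and early termination, most of them nuclear and listed because they act on antisense and promoter-upstream transcripts, moved in both directions. The list also held XRN1 and UPF1, factors of cytoplasmic decay. UPF1 was among the higher calls against KO with EWS-FLI1, with WT and with ΔIDR1b. Of 33 names listed 32 were tested, ARS2 being another name of SRRT. With WT 2 were higher and 3 lower, and with EWS-FLI1 4 higher and 8 lower. These were 15.6% and 37.5% of the list. Of all genes 11.7% and 18.1% were called, and of those at 2 CPM or more 15.3% and 23.5%. With ΔIDR1b against KO 4 were higher and 11 lower, and 7 higher and 9 lower. These were 46.9% and 50%, beside 33.3% and 35.9% of all genes and 40.8% and 43.9% at 2 CPM or more. The largest falls with ΔIDR1b were those of PCF11, a factor of transcript cleavage and termination, by 1.78 (adjusted p = 2.09e-12) and 1.76 (adjusted p = 2.14e-12), and of PABPN1, the nuclear poly(A)-binding protein that links polyadenylated noncoding RNA to the exosome, by 1.58 (adjusted p = 1.3e-11) and 1.54 (adjusted p = 2.07e-11). With WT, PCF11 changed by -1.12 and -1.29, and PABPN1 fell by 0.58 and 1.00. RBM7, of the exosome-targeting complex NEXT, changed by -1.26 and -1.08 with ΔIDR1b. The largest rises were those of ZC3H4, a factor that restricts extragenic transcription, by 1.24 (adjusted p = 1.74e-07) and 1.18 (adjusted p = 3.18e-07), and of its partner WDR82, by 0.60 and 0.70. With WT, ZC3H4 changed by -0.39, which was not called (adjusted p = 0.126), and by -0.66 (adjusted p = 0.00511), so that it lay on opposite sides of KO with the 2 forms of ARID1A. The examples were chosen as the largest changes on the list, after their values were seen. The part of these factors in the level of the AS genes was not tested.

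Other genes at 2 CPM or more, grouped by name, differed in how far they followed. Against KO the 141 DT genes had a median log2 fold change of -0.52 and -0.49 with WT and of -0.22 and -0.16 with ΔIDR1b. The 129 LINC genes had -0.36 and -0.28, and -0.04 and -0.05. The 815 genes with an Ensembl number alone, a group that may hold coding genes, had -0.30 and -0.36, and -0.46 and -0.55. The 42 HG genes had -0.05 and -0.16 with WT, where 4 were called higher and 5 lower, and 5 higher and 12 lower, and -0.20 and -0.42 with ΔIDR1b. The 8 genes named as intronic transcripts (suffix IT) had -0.31 and -0.10, and -0.91 and -0.99. The AS genes had -0.39 and -0.48 with WT and -0.29 and -0.30 with ΔIDR1b.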

How the data were processed

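Raw counts per gene of 12 polyA RNA-seq libraries were used as the authors deposited them. Per the file headers they were made with featureCounts 2.0.1 on GENCODE 41 (GRCh38 patch 13), by gene name, for fragments with both ends mapped and with no strand option. Per the submitters' processing notes STAR, SAMtools and edgeR were also used, with versions not given in the sources used here. Per the labels' protocols the kit did not name a step that marks strand.

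Genes passed edgeR's filter by group (minimum count 10, minimum total 15), which left 20377. Counts were scaled by TMM and fitted with a mean per group by the quasi-likelihood test (edgeR 4.0.16, R 4.3.3), with Benjamini-Hochberg adjustment over all genes tested and a call at an adjusted p under 0.05. The ratio of AS to sense counts, each plus 0.5, was fitted on the log2 scale with limma 3.58.1 over 713 pairs. The common biological coefficient of variation was 10.1%, and the depth of 11702251 to 14445379 counts makes 3 counts worth 0.208 to 0.256 CPM. Intervals cover counting error only. Named genes were the 5 most abundant AS genes, up to 5 called genes with the largest change each way in each comparison of ARID1A states, with groups that do not overlap, the same for the ratio, every call for EWS-FLI1, and called genes of the widely studied list. The members and lists were chosen with earlier results of these data known. The fits were tested on simulated data. Alternatives were upper-quartile scaling, no filter beyond 1 count, only the groups compared, DESeq2 1.42.0, a replicate block, each library left out and, for ratios, a pseudocount of 2 or both genes at 2 CPM.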

Additional observations from a re-analysis of the deposited data

How the results depend on the processing

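Among 374 results on named genes and ratios, 182 kept their call and direction under every alternative run, 192 lost their call under at least 1, and 0 reversed. Leaving out a library leaves its group with 1 library, which is assumed to vary like the others. Counts of called AS genes then ran from 26 to 81 and 65 to 109 for WT against KO (the empty vector first), 87 to 134 and 105 to 159 for ΔIDR1b against KO and 51 to 111 and 54 to 86 for ΔIDR1b against WT. For EWS-FLI1 they ran from 0 to 5 averaged over the states, 0 to 2 in WT and 0 to 1 for the interaction of WT and KO. Ratio counts ran from 6 to 31, 31 to 63, 54 to 90, 67 to 103, 23 to 56 and 23 to 56 in the 6 comparisons, and from 0 to 1 for EWS-FLI1. Fitting only the libraries compared gave 53 AS genes for ΔIDR1b against WT with EWS-FLI1. DESeq2 called 58, 97, 114, 138, 84 and 73 AS genes. Upper-quartile scaling shifted log2 values by at most 0.0644 in size (-0.0644 for WT against KO with the empty vector).

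Repeat numbers are shared by the groups. Differences between repeats correlated at 0.0789 to 0.343 within a vector and at -0.166 to -0.00635 between vectors (12288 genes). Repeats of the same number thus had a weak difference in common within a vector, which the main fit did not take in. A replicate block over all libraries gave 61, 110, 123, 147, 96 and 87 called AS genes. A block within each vector gave 82, 125, 136, 159, 111 and 101, and for EWS-FLI1 4 averaged over the states, 2 in WT, 2 in ΔIDR1b and 4 for the ratio. At this depth 3 counts equal up to 0.256 CPM, so AS genes near 1 CPM in a group rest on few counts.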
